A study of Mus musculus with 8 samples.

Results

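The genes described here are the sensing machinery of the sterol regulatory element binding proteins (SREBPs) and 2 of the genes of lipid uptake and transport. They are the factors Srebf1 and Srebf2, the escort Scap, the anchors Insig1 and Insig2, the proteases Mbtps1 and Mbtps2, the lipoprotein receptor Vldlr and the sterol carrier Stard4. Of these 9 genes, named by symbol with earlier results of these data known, 7 were matched to a probe set, among 19505 genes with a symbol on the array. Srebf1 and Mbtps2 had no match and are not analysed here. Each matched gene had 1 probe set.

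The samples were CD4 and CD8 T cells together, taken from spleens of 4 male C57BL/6 wildtype mice with a kit that isolates all T cells. All cells were stimulated with microbeads carrying antibodies to CD3 and CD28 and cultured for 48 h, either with PBS, the vehicle (4 arrays), or with the human antimicrobial peptide beta-defensin-2, hBD-2, added at 60 µL/mL (4 arrays). The labels give that dose in microlitres, from which no mass concentration follows. The comparison asks how the peptide alters gene expression in activated T cells, and here whether the parts that sense sterols moved with the genes of uptake. Since these were bulk samples, fewer cells of a type and less RNA per cell cannot be told apart.

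SREBPs are transcription factors that are made as membrane proteins of the endoplasmic reticulum. SCAP senses cholesterol and escorts them to the Golgi when sterols are low, where the site-1 and site-2 proteases cut them and free the active part, while INSIG proteins hold SCAP back when sterols are plentiful. The freed factors switch on genes of sterol and fatty acid synthesis and of lipoprotein uptake, and they also switch on Insig1 and Srebf2, which closes a feedback loop. Activated T cells raise this programme to build membrane for division.

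In cells kept with hBD-2, 4 of the 7 measured genes fell and none rose: Insig1, Stard4, Vldlr and Srebf2. Over all 19505 genes, 3.66% fell and 0.800% rose past the same threshold, a limma adjusted p under 0.05. Since the genes were chosen with earlier results of these data known, the 2 shares are set side by side as a description only. Insig1 fell 2.49-fold, Stard4 2.39-fold, Vldlr 1.91-fold and Srebf2 1.47-fold. Scap, Insig2 and Mbtps1 did not pass the threshold, with log2 fold changes of -0.13, -0.18 and -0.05, the last 2 of which changed sign under some alternatives, given with each gene. The median log2 fold change was -0.56 for the 7 genes and 0.02 for all genes. The groups did not overlap in the same 4 genes, each lower with hBD-2, which held for 9.36% of all genes.

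**Figure D1:**
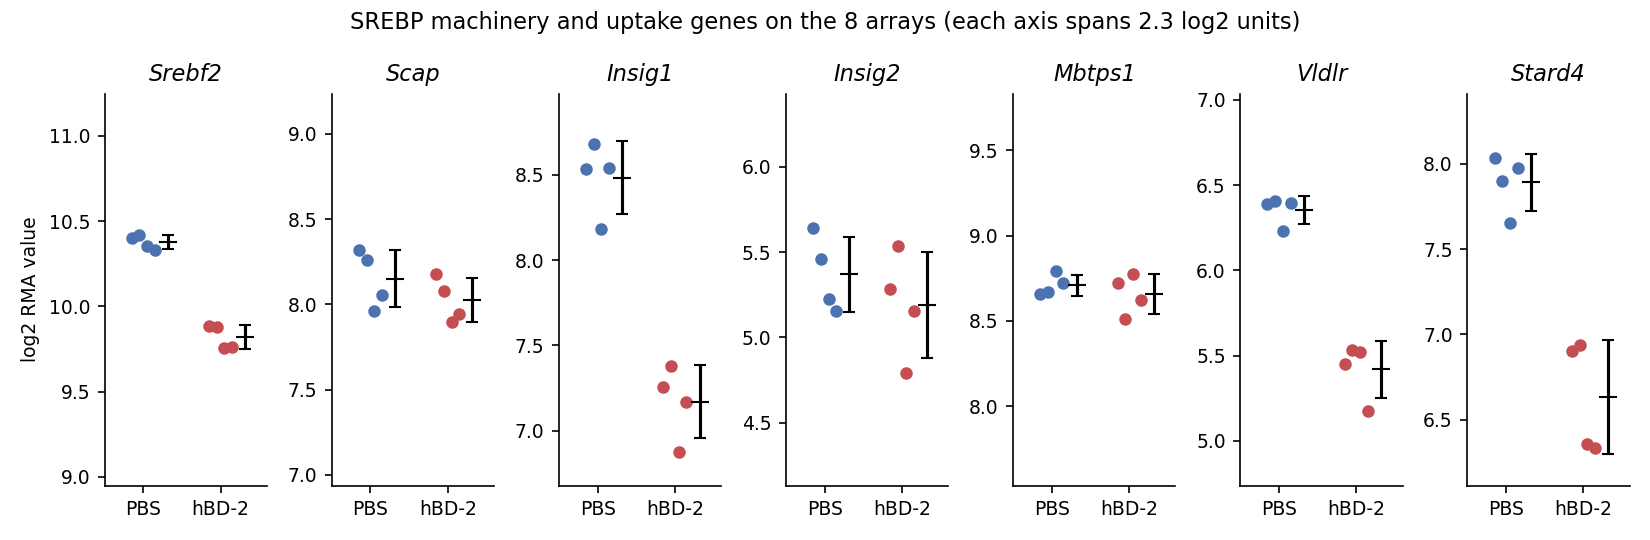
The log2 RMA value of each of the 7 genes on each array, with PBS arrays in blue and hBD-2 arrays in red, and with the group mean and SD (n = 4) beside the points; every vertical axis spans the same width. The hBD-2 arrays lie wholly below the PBS arrays for Srebf2, Insig1, Vldlr and Stard4, and the groups overlap for Scap, Insig2 and Mbtps1.

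Values are log2 expression values as deposited, given per array in the order of replicates 1 to 4, and a difference of 1 on this scale is 2-fold. The 8 arrays resembled each other, with Pearson correlations across genes, which are not independent replicates, of 0.990 to 0.994 within groups and 0.983 to 0.992 between them. The spread of values within an array was narrower with hBD-2, with interquartile ranges of 3.45 to 3.64 log2 units against 3.64 to 3.76 with PBS (two-sided exact permutation p = 0.0571), and it was narrowest on hBD-2 replicates 3 and 4. In all, 713 genes fell and 156 rose, so that 82.0% of the called genes were lower, a share that was 69.7% with quantile normalization repeated (521 lower and 227 higher). The count of lower genes moved by over 1.5 times without PBS replicate 1 (279), 2 (299) or 4 (325), or without hBD-2 replicate 1 (1074), 3 (339) or 4 (313). The T cell markers, 12 of 12 matched, had mean levels of 10.25 to 10.34 on the PBS arrays and 10.27 to 10.36 on the hBD-2 arrays, and none of them passed the threshold. Of the 9 markers of granulocytes, mast cells and basophils, Cpa3 and Fcer1a rose, and the mean level of the 9 was 4.24 to 4.36 with PBS and 4.49 to 4.90 with hBD-2, a list whose part in the results was not tested. Klf1 rose among 4 matched erythroid markers and Itgam fell among 11 of macrophages, monocytes and dendritic cells, while the matched markers of B cells (7), NK cells (5) and endothelial cells (5) did not pass. The B cell markers had mean levels of 4.73 to 5.46 with PBS and 4.88 to 6.15 with hBD-2. Their median log2 fold change was 0.50, and their part in the results was likewise not tested.

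Among the factors, Srebf2, whose product drives chiefly the cholesterol genes, had log2 values of 10.40, 10.42, 10.36 and 10.33 with PBS and 9.89, 9.88, 9.76 and 9.76 with hBD-2. The 4 hBD-2 arrays lay within 0.13 of each other and 0.44 below the lowest PBS array. The fall was 1.47-fold, from 10.38 ± 0.0423 (SD, n = 4) to 9.82 ± 0.0730, a log2 fold change of -0.56 with a 95% interval of -0.74 to -0.37 (SE 0.0850, limma adjusted p = 0.00487). It was the smallest of the 4 falls. Without hBD-2 replicates 3 and 4 together, an alternative added after the data were seen, the fall was -0.49 and no longer passed (limma adjusted p = 0.0737).

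Insig1, an anchor of SCAP in the endoplasmic reticulum and itself an SREBP target, had values of 8.54, 8.68, 8.18 and 8.54 with PBS and 7.25, 7.38, 6.88 and 7.17 with hBD-2. The lowest PBS array, replicate 3, was 0.80 above the highest hBD-2 array. The mean fell from 8.48 ± 0.213 to 7.17 ± 0.214 (SD, n = 4), a log2 fold change of -1.31 with a 95% interval of -1.61 to -1.02 (SE 0.134, limma adjusted p = 0.000567). Insig1 ranked 26 among all 19505 genes in size of fall.

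Insig2, the second anchor, which is not known for the same strong SREBP control, had values of 5.64, 5.46, 5.22 and 5.16 with PBS and 5.28, 5.54, 4.79 and 5.15 with hBD-2. The groups overlapped, and the highest hBD-2 array lay above 3 of the PBS arrays. The log2 fold change was -0.18 with a 95% interval of -0.52 to 0.17 (limma adjusted p = 0.549), and it was 0.04 without hBD-2 replicates 3 and 4 together. The interval spans a fall of up to 1.44-fold.

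The anchors were also compared with each other on each array. Levels of different probe sets cannot be set against each other, but a shift of their difference between groups shows unequal change of the measured values. The log2 difference of Insig1 minus Insig2 was 2.90, 3.22, 2.96 and 3.38 on the PBS arrays and 1.97, 1.84, 2.09 and 2.01 on the hBD-2 arrays. The difference was thus smaller on every hBD-2 array than on any PBS array. Its mean dropped by 1.14, from 3.11 ± 0.228 to 1.98 ± 0.103 (SD, n = 4; exact permutation test, two-sided, p = 0.0286, also 0.0286 after Benjamini-Hochberg adjustment over 3 such differences). With 4 arrays against 4 this is the smallest p the test can give. Insig2 was the dimmer probe set, with a mean of 5.28 (percentile 47.6 of level) against 7.83 (percentile 81.2) for Insig1. RMA understates changes of dim genes, and the part of this in the shift was not tested. Srebf1 against Srebf2 and Mbtps1 against Mbtps2 were not compared, since in each pair 1 gene was not matched.

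Scap, the cholesterol sensor itself, had values of 8.32, 8.26, 7.96 and 8.06 with PBS and 8.18, 8.08, 7.90 and 7.94 with hBD-2. The groups overlapped across most of their range. The log2 fold change was -0.13 with a 95% interval of -0.36 to 0.11 (limma adjusted p = 0.542), so a fall of more than 1.29-fold or a rise of more than 0.11 on the log2 scale lay outside the interval. It was -0.03 with quantile normalization repeated and -0.04 with cyclic loess.

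Mbtps1, the site-1 protease that makes the first cut in SREBPs, had values of 8.66, 8.67, 8.79 and 8.72 with PBS and 8.72, 8.51, 8.78 and 8.62 with hBD-2. The highest hBD-2 array was above 3 of the 4 PBS arrays. The log2 fold change of -0.05 had a 95% interval of -0.26 to 0.15 (limma adjusted p = 0.780) and turned to 0.04 with quantile normalization repeated and 0.03 with cyclic loess. Its interval was narrower than those of Scap and Insig2. That a gene missed the threshold does not show that it stayed the same.

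**Figure D2:**
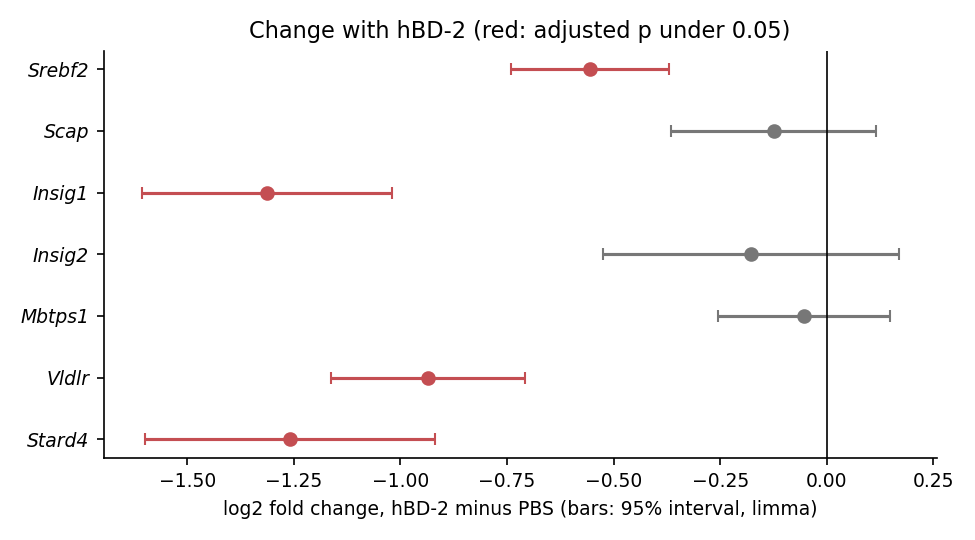
Log2 fold changes, hBD-2 minus PBS, of the 7 genes with their 95% intervals from the limma fit; genes past the threshold are red. The intervals of Insig1, Stard4, Vldlr and Srebf2 lie below 0, from -1.61 to -0.37 in all, and those of Scap, Insig2 and Mbtps1 span 0.

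On the side of uptake and transport, Vldlr, a receptor that takes up triglyceride-rich lipoproteins, had values of 6.39, 6.40, 6.23 and 6.39 with PBS and 5.45, 5.53, 5.52 and 5.18 with hBD-2. A gap of 0.70 parted the groups. Vldlr fell 1.91-fold, from 6.35 ± 0.0826 to 5.42 ± 0.166 (SD, n = 4), a log2 fold change of -0.94 with a 95% interval of -1.16 to -0.71 (SE 0.104, limma adjusted p = 0.000816). It is also known as a gene induced by hypoxia.

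Stard4, which carries cholesterol between membranes in the cytosol and is a known SREBP-2 target, had values of 8.04, 7.90, 7.66 and 7.98 with PBS and 6.90, 6.94, 6.36 and 6.33 with hBD-2. Replicates 3 and 4 with hBD-2, the arrays with the narrowest spread, were lower than replicates 1 and 2, and every hBD-2 array was below every PBS array. Stard4 fell 2.39-fold, from 7.89 ± 0.167 to 6.63 ± 0.333 (SD, n = 4), a log2 fold change of -1.26 with a 95% interval of -1.60 to -0.92 (SE 0.156, limma adjusted p = 0.00148). Without hBD-2 replicates 3 and 4 together the log2 fold change was -0.97 (limma adjusted p = 0.0157). It ranked 32 and Vldlr 93 among all genes in size of fall, against 412 for Srebf2.

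Both uptake and transport genes fell more than the sensor Scap. Scap is not the whole of the sensing machinery: Insig1 had a log2 fold change of -1.31, against -1.26 for Stard4 and -0.94 for Vldlr. The log2 difference of Stard4 minus Scap was -0.28, -0.36, -0.31 and -0.08 with PBS and -1.28, -1.14, -1.54 and -1.61 with hBD-2. Its mean moved from -0.26 ± 0.122 to -1.39 ± 0.223, and every hBD-2 array was below every PBS array (SD, n = 4; two-sided exact permutation p = 0.0286, the smallest possible, and 0.0286 after adjustment over the 3 differences). The difference of Vldlr minus Scap was -1.93, -1.86, -1.73 and -1.67 with PBS and -2.73, -2.54, -2.38 and -2.77 with hBD-2, which again did not overlap. Its mean moved from -1.80 ± 0.118 to -2.61 ± 0.180, by -0.81, with the same exact permutation p of 0.0286 (two-sided, n = 4 arrays a group). The Scap values of all arrays lay between 7.90 and 8.32. That span is narrower than the gaps between the groups, 0.72 for Stard4 and 0.70 for Vldlr. The groups thus could not overlap in either difference from Scap, and the p of both followed from the falls of Stard4 and Vldlr. These genes were also chosen with earlier results of these data known, so the p adds no support of its own.

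**Figure D3:**
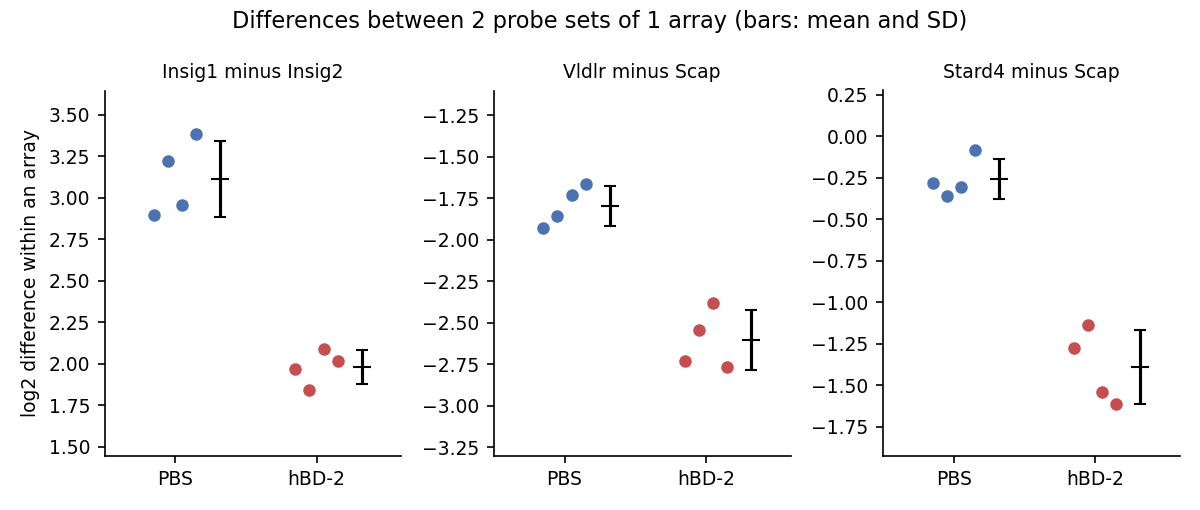
The log2 difference between 2 probe sets on each array, for Insig1 minus Insig2, Vldlr minus Scap and Stard4 minus Scap, with PBS arrays in blue, hBD-2 arrays in red and the mean and SD (n = 4) beside them. In all 3 panels the hBD-2 arrays lie below the PBS arrays; only the shift between groups, and not the height of an axis, can be read.

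Within the groups the genes shared part of their order. PBS replicate 3 had the lowest value of the 4 PBS arrays in Scap, Insig1, Vldlr and Stard4, and hBD-2 replicate 3 had the lowest of the 4 hBD-2 arrays in Srebf2, Scap, Insig1 and Insig2. The opposite was seen for Mbtps1, where replicate 3 was the highest array in both groups. Scap had the same order of replicate numbers in both groups and was lower with hBD-2 in each of the 4 pairs of equal number, and with that number as a block it did not pass (limma adjusted p = 0.429). The labels do not say that a replicate number marks a mouse.

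The promoters of the genes that fell are shown because SREBPs bind short sequences there, together with NF-Y at CCAAT boxes and Sp1 at GGGCGG boxes. RefSeq windows of assembly GRCm38.p6, from 250 bases before to 50 after a transcript start, were searched on both strands for TCACCCCAC, the core of the sterol regulatory element, for TCACNCCAC, which includes it, for the E-box CACGTG, for the CCAAT box and for the Sp1 box GGGCGG. The shorter TCACCCCA, contained in the first, was added after the Srebf2 window had been read. Of the 9 genes, 8 had a window and Stard4 had none. The 250 bases before the start are printed 5′ to 3′ on the strand of the gene for Srebf2, Insig1 and Vldlr, which fell, and for Insig2, which did not pass, with the farthest upstream start where a gene has several. Capitals mark TCACCCCA, the E-box CACGTG and the CCAAT box, which reads ATTGG on the other strand.
Srebf2 (chr15:82147019-82147268, plus strand): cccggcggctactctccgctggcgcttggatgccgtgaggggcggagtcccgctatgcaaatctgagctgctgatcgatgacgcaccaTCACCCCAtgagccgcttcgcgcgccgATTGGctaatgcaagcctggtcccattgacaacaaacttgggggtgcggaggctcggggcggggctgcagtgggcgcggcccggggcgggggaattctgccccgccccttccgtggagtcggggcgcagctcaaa
Insig1 (chr5:28071162-28071411, plus strand): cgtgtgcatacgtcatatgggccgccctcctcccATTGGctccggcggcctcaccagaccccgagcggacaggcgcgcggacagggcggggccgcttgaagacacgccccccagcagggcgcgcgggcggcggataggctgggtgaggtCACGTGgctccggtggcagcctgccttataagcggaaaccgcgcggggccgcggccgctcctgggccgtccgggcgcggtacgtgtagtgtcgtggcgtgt
Vldlr (chr19:27216234-27216483, plus strand): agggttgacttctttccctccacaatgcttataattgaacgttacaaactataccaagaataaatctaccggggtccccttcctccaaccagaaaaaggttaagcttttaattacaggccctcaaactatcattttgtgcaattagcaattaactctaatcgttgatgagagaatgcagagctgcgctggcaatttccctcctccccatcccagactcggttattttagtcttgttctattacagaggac
Insig2 (chr1:121332590-121332839, minus strand): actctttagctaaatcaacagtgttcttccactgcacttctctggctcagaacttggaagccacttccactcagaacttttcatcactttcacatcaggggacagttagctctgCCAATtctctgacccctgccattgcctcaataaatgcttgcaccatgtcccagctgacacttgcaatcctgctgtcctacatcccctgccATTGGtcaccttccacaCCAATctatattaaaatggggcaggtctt

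Counted from the start at 0, the Srebf2 window held TCACCCCA at -162 to -155 and a CCAAT box on the other strand at -135 to -131, with 5 GGGCGG boxes in the whole window. TCACCCCA was found in 1.56% of all 32851 windows, CCAAT in 37.4% and GGGCGG in 35.7%. The Insig1 window held CACGTG at -101 to -96, a sequence in 7.15% of all windows, a CCAAT box at -216 to -212 and 3 GGGCGG boxes. Vldlr had no match in its upstream window, and its other window, which lies downstream of that start and is not printed, held 1 CCAAT and 1 GGGCGG box. Of the 3 Insig2 windows, the one printed held 3 CCAAT boxes and the others 1 GGGCGG box each. Scap, with 2 overlapping windows, held the E-box and the Sp1 box but no CCAAT box, and Mbtps1 held 1 GGGCGG box. Neither the 9 bases TCACCCCAC, found in 0.551% of all windows, nor the looser TCACNCCAC, found in 1.24%, occurred in any window of the 9 genes. Among the cholesterol synthesis genes with windows, 14 of 15 held a CCAAT box. It was held by 41.1% of all genes with a window, 42.2% of the tested genes and 49.2% of the genes lower with hBD-2. A GGGCGG box was likewise held by 14 of 15, against 38.2%, 51.2% and 70.1%, and 1 gene, Hmgcs1, held TCACCCCAC. The 15 included Acat2 and Tm7sf2, which were not matched to a probe set, and left out the measured Fdps, Fdft1 and Sqle, which had no window. Of 10 fatty acid synthesis genes with windows, 6 held a CCAAT box and 6 a GGGCGG box. These matches describe letters and are not shown to be bound sites.

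The rest of the pathway was followed through lists grouped by role. The enzymes of cholesterol synthesis, classical SREBP-2 targets, fell in 15 of 16 matched members, against 3.66% of all genes. The median log2 fold change of the list was -1.14. The exception was Mvk, mevalonate kinase (-0.38, limma adjusted p = 0.0832). Hmgcs1, the synthase before mevalonate, had a log2 fold change of -1.53, and the later enzymes Msmo1 and Nsdhl, which take methyl groups off the sterol ring, had -1.54 and -1.47. Insig1 and Stard4 stood inside this range: 5 of the 16 enzymes fell further than Insig1, 6 further than Stard4, 10 further than Vldlr and 15 further than Srebf2. The enzymes' count was 9 without hBD-2 replicates 3 and 4 together.

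Fatty acid synthesis genes, known chiefly as SREBP-1 targets, fell in 7 of 12 matched members, against 3.66% of all genes, with a median of -0.74. The desaturase Fads2 had -2.22, while the synthase gene Fasn and Acly, whose enzyme supplies its acetyl-CoA, had -0.86 each. Elovl5, Mid1ip1, Acss2, Gpam and Me1 did not pass, at -0.35 to -0.04. Me1 was dim, with a mean of 3.21, below the mean lower quartile of the arrays, 3.70. Without hBD-2 replicates 3 and 4 together, 2 fell.

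Of 15 other lipoprotein receptors, 2 fell and none rose, against 3.66% lower and 0.800% higher over all genes, with a median of 0.01. Scarb1, the HDL receptor SR-BI, fell from 7.82 ± 0.134 to 7.05 ± 0.123 (SD, n = 4; log2 fold change -0.77, SE 0.103, limma adjusted p = 0.00223). Lrp8, an apolipoprotein E receptor closely related to Vldlr, fell from 6.12 ± 0.381 to 5.08 ± 0.434 (log2 fold change -1.03, limma adjusted p = 0.0264), a call lost without PBS replicate 1, 2 or 4 or hBD-2 replicate 3 or 4 (highest limma adjusted p = 0.0811). Next by p came Ldlrad4, whose product dampens TGF-beta signalling, at 5.46 ± 0.164 with PBS and 5.82 ± 0.157 with hBD-2 (SD, n = 4; log2 fold change 0.36, SE 0.114). It did not pass (limma adjusted p = 0.0961), but was called higher, at an adjusted p of 0.04997, when genes below the percentile 40 of level were left out. The other 12, among them Lrp1, Lrp6, Sorl1 and Cd36, lay between -0.18 and 0.20. Cd36 was dim, with a mean of 2.84 against a mean lower quartile of the arrays of 3.70, so its small change says little.

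Of 7 matched receptor partners and genes of endosomal cholesterol release, Npc1, the lysosomal cholesterol transporter, was the 1 that fell (-0.44, limma adjusted p = 0.0484). It no longer passed when any of 6 arrays was left out (highest 0.133), with quantile normalization repeated (0.0703) and with cyclic loess (0.0651). Lrpap1, a chaperone of these receptors, and Snx17, a sorting nexin that recycles them, had -0.33 and -0.22 without passing. Among 15 sterol carriers, Stard5, a close relative of Stard4, was the 1 that fell (-0.45, limma adjusted p = 0.0442), which no longer passed when any of 7 arrays was left out (highest 0.123), with quantile normalization repeated (0.0633) or with the replicate number as a block (0.0607). Stard7 and Osbpl2 had -0.33 and -0.27 and did not pass. Over all genes 3.66% were lower, and 1 lower gene in a list of 7 or 15 does not set a list apart. The fall of Stard4 itself, -1.26, was past that of all 15.

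Of the 48 genes in the remaining 4 lists, which move, hold or feed the SREBP complex or share its proteases, 2 fell and none rose, a share of 4.17% lower that is near the 3.66% of all genes. At an unadjusted limma p under 0.05 stood 16 of the 48, against 22.3% of all genes in either direction. Of 13 genes of the COPII coat, which carries SCAP and SREBP out of the endoplasmic reticulum, Sec24d, a cargo adaptor, fell (-0.51, limma adjusted p = 0.0336; not passed when any of 6 arrays was left out, highest 0.0964), and the GTPase gene Sar1b and its exchange factor Preb had -0.40 and -0.28. Of 16 stability and retention factors, none passed by limma at the adjusted threshold, with 5 of them under an unadjusted p of 0.05, and 1 was lower with a variance trend and robust estimation or without hBD-2 replicate 1. Erlin2, Vcp and Pgrmc1 had -0.31, -0.30 and -0.22. Of 8 other substrates of the site-1 and site-2 proteases, Gnptab, which helps to tag lysosomal enzymes with mannose phosphate, fell (-0.47, limma adjusted p = 0.0164; lost without PBS replicate 2 or 4 or hBD-2 replicate 4, highest 0.0605), and Atf6 and Creb3l2 had -0.19 and 0.13. Of 11 upstream inputs from AKT, mTORC1, AMPK and LXR, none passed by limma, with 4 under an unadjusted p of 0.05, while 1 was lower and 1 higher with a variance trend and robust estimation and 1 was higher without hBD-2 replicate 1. The LXR gene Nr1h3 had 0.56 (5.19 ± 0.122 and 5.75 ± 0.434, SD, n = 4; limma adjusted p = 0.102), its partner Rxra 0.29 and the AMPK subunit gene Prkaa2 -0.31. Prkaa2 was dim, with a mean of 3.08, below the mean lower quartile of the arrays, 3.70.

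**Figure D4:**
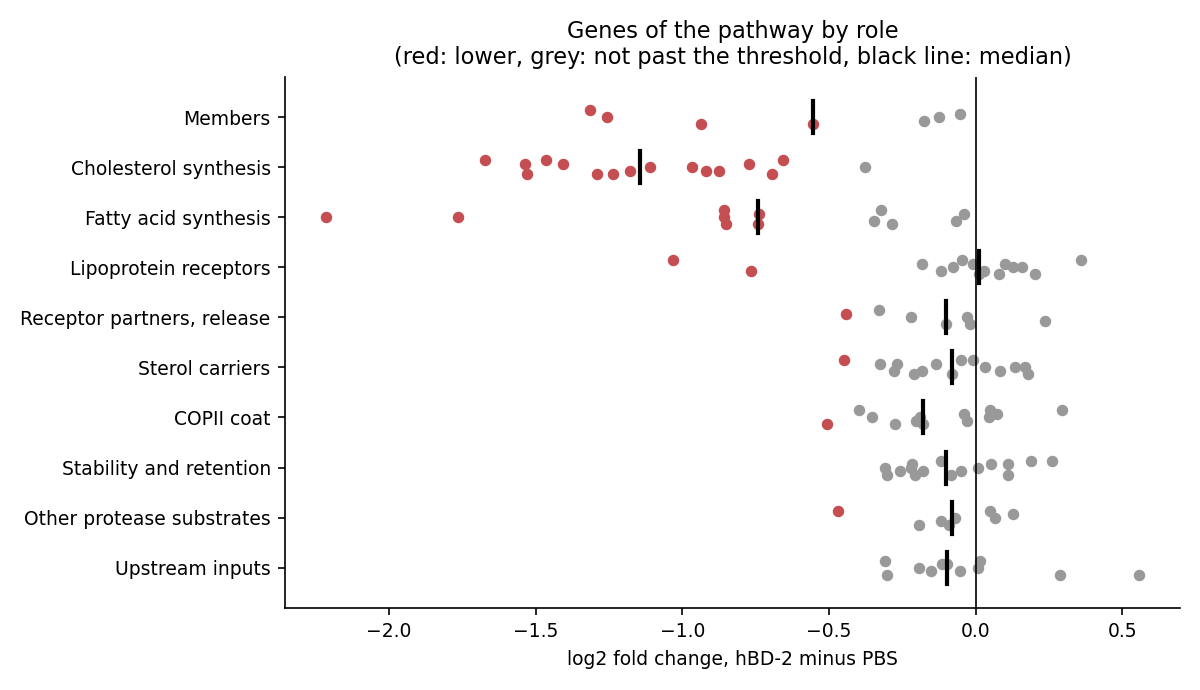
Each point is the log2 fold change, hBD-2 minus PBS, of 1 gene, in rows for the 7 matched genes described here and for 9 lists by role; red points fell past the threshold, grey points did not pass, and the black line is the median of the row. The cholesterol and fatty acid synthesis rows lie mostly to the left, with medians of -1.14 and -0.74, and the medians of the other 7 lists lie between -0.18 and 0.01.

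The genes with the most similar profiles were sought by the root mean square distance between log2 profiles over the 8 arrays, each centred on its own mean, which mostly follows the size of the fall. For Insig1 these were Ero1a (0.0762), Sqle (0.0764) and Cyp51 (0.118), an oxidase of the endoplasmic reticulum and enzymes of sterol synthesis. For Stard4 they were Tmem97 (0.0829), a regulator of NPC1, Cyp51 (0.114) and Slc16a3 (0.129), a lactate exporter. The nearest to Vldlr were Echdc1 (0.0601), Fam162a (0.0850) and Serpinb6c (0.108), and to Srebf2 the aldolase gene Aldoa (0.0358), Dynll1 (0.0447) and Xpnpep1 (0.0502). A distance of 0 would be the same profile, and the root mean square of a profile itself was 0.682 for Insig1, 0.669 for Stard4, 0.481 for Vldlr and 0.283 for Srebf2.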

How the data were processed

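Gene expression was measured on 8 one-colour arrays, 4 a group. The authors deposited 1 table of log2 values with 22203 probe sets, made with oligo and RMA (background correction, normalization between arrays and summary per probe set) per the submitters' processing notes. Neither versions nor settings nor an annotation build is given in the sources used here. RMA draws dim signals towards a floor, so changes of dim genes are understated. The platform's annotation gave 1 symbol to 19572 probe sets and several to none of them, while the other 2631 are not in it and are unnamed here. Where a gene had several probe sets (55 genes), the one with the highest mean was kept, which left 19505 genes. The probe set identifiers were not translated to coordinates.

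hBD-2 was compared with PBS with limma 3.58.1 in R 4.3.3 (lmFit, eBayes, no block, no filter), with two-sided tests, p-values adjusted by Benjamini-Hochberg over all 19505 genes and a threshold of 0.05. Single differences within arrays were compared with exact permutation tests, and lists are described by counts and medians. The fit was first tested on simulated data. It recovered 0% of seeded 1.25-fold changes, 60% of 1.5-fold, 92% of 2-fold and 100% of 3-fold (50 genes each), with 3.08% of calls false. A gene that did not pass may thus have changed by a small fold. The genes and lists were chosen with earlier results of these data known. All 9 genes of the rule, up to 3 genes a list by smallest p, and the 3 nearest profiles of each called gene are named; others, in counts of 5 or fewer or as examples, were picked with their values in view. The labels tie no array to a mouse, and where arrays share a mouse or differ only technically the p-values measure only the spread between these arrays. Alternatives were a replicate block, quantile normalization repeated, cyclic loess, a variance trend with robust estimation, a filter at the percentile 40 of level, averaged probe sets and each array left out. Promoter windows came from a RefSeq table of GRCm38.p6. The number of arrays limits the precision.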

Additional observations from a re-analysis of the deposited data

Results flagged for a closer look

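The Vldlr value of PBS replicate 3, 6.23, stood apart from the other 3 PBS arrays, the nearest of which was at 6.39, with a gap of 0.914 of the whole range of the group, above Dixon's 95% critical value for 4 arrays. Of 14 groups of 4 arrays examined over the 7 genes this was the 1 that stood out, and about 1 group in 20 does so by chance. The array lies towards the hBD-2 group, and without it the log2 fold change of Vldlr was -0.98 (limma adjusted p = 0.00232).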

How the results depend on the processing

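Insig1, Stard4, Vldlr and Srebf2 fell past the threshold in all 14 alternatives of the processing summary, 8 of which left out 1 array each, and Scap, Insig2 and Mbtps1 passed in none. Over these, the log2 fold change lay between -1.41 and -1.22 for Insig1, -1.36 and -1.16 for Stard4, -0.98 and -0.85 for Vldlr and -0.58 and -0.48 for Srebf2. Mbtps1 turned to 0.041 with quantile normalization repeated and 0.032 with cyclic loess, and Insig2 to 0.041 without hBD-2 replicates 3 and 4 together, an alternative chosen after seeing the data. That setting left 3 of the 7 genes lower, Srebf2 no longer passing; it rests on fewer arrays, and the cause was not tested otherwise.

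With 1 array left out, the 4 lower genes stayed 4, and the within-array differences moved from -1.21 to -1.05 (Insig1 minus Insig2), from -0.89 to -0.76 (Vldlr minus Scap) and from -1.22 to -1.06 (Stard4 minus Scap). Their exact p could not change, since groups that do not overlap keep the smallest p with any array left out. The counts over all genes, 713 lower and 156 higher, ranged from 279 to 1074 and from 33 to 322 with 1 array left out. They were 1554 and 479 with a variance trend and robust estimation, 1192 and 349 above the percentile 40 of level, where fewer genes were tested, and 112 and 16 without hBD-2 replicates 3 and 4 together. With 1 array left out, the lower genes numbered 1 to 2 among lipoprotein receptors, 0 to 1 among receptor partners, sterol carriers, stability factors and protease substrates and 0 to 3 in the COPII coat, and 0 to 1 upstream input was higher. Without hBD-2 replicates 3 and 4 together, 9 cholesterol enzymes, 2 fatty acid genes and 1 lipoprotein receptor were lower, and 0 receptor partners, sterol carriers, COPII genes and protease substrates. Quantile normalization repeated left 0 receptor partners and 0 sterol carriers lower, and cyclic loess 0 receptor partners. A variance trend with robust estimation gave 4 lower COPII genes, 1 lower stability factor, and 1 lower and 1 higher upstream input. The filter on level gave 3 lower COPII genes and 1 higher gene, Ldlrad4, in the list of lipoprotein receptors. The cause of these shifts was not tested.

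Arrays of the same replicate number were weakly alike after group means were removed (correlations of 0.18, 0.06, 0.16 and 0.005 for numbers 1 to 4), and the PBS arrays of numbers 1 and 3, but not 2 and 4, matched the hBD-2 array of their own number best. Whether the numbers mark shared mice is unknown. With the replicate number as a block, 698 genes were lower and 159 higher, the sterol carriers had 0 lower genes, and no call of the 7 genes changed. Paired by number, the within-array differences kept their means of -1.14, -0.81 and -1.13, and the exact sign-flip test, which cannot go below 0.125 with 4 pairs, gave 0.125 for each.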
